A study of Mus musculus with 34 samples.

Results

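Expression of 10 genes of the response to luteinizing hormone (LH) and of luteinization was described in mouse cumulus cells (CCs), the granulosa cells that surround the oocyte. The genes were Lhcgr, Pgr, Runx1, Runx2, Cebpa, Cebpb, Ptger2, Ptges, Sfrp4 and Sult1e1. They were found by their symbol in a table of 25965 gene entries, where each had 1 entry, and were followed over all 34 libraries. The rule itself used no measured value, although the genes were proposed with earlier results of these data known.

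All mice were superovulated C57BL/6J females that were 8 weeks old when a protocol began. In the pharmacological hyperleptinemic model they received saline (16 C, n = 3) or leptin (16 L, n = 5) by intraperitoneal injection for 16 days, with 100 μg of leptin a day given in a morning and an evening dose. For diet-induced obesity (DIO), chow diet (CD) and high-fat diet (HFD) were given for 4 weeks (n = 5 and n = 5) or 16 weeks (n = 6 and n = 7). The labels give 11% of the energy of CD and 58% of that of HFD as fat. A further 3 libraries were from low weight gainers, mice that the labels set apart within 16 weeks of HFD for their small weight gain. In the DIO protocol, time on the diet and age rose together, so that they cannot be told apart. The labels describe about 50 cells from a single cumulus-oocyte complex per library, whereas the study's methods describe that number per animal. The time between the ovulatory stimulus and collection is not given in the sources used here.

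LH, and the human chorionic gonadotropin that stands in for it in superovulation, act on the receptor encoded by Lhcgr, which raises cyclic AMP in granulosa cells. This signal switches on a wave of ovulatory genes, among them the progesterone receptor, RUNX transcription factors and the enzymes and receptors of prostaglandin E2, while C/EBP transcription factors carry granulosa cells toward the luteal state. Cumulus cells themselves bear few LH receptors, and much of the signal reaches them through EGF-like ligands and prostaglandin E2 released around them.

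The total counts of the libraries ranged from 1104611 to 13207018, and 0 of 72 pairs of replicates were identical. Levels are given as CPM, counts scaled to a common library size, with sizes adjusted by the TMM method over all 34 libraries, and 3 reads, the limit that a count of 0 allows, corresponded to between 0.214 and 2.75 CPM. The 7 markers of cumulus and granulosa cells summed to between 762 and 2156 CPM over the 34 libraries, and the 8 oocyte and 4 endothelium markers to at most 317 and 63.3 CPM. Library 16 L replicate 18 stood apart from all others. Its 7 oviduct epithelium markers summed to 36159 CPM, of which the oviduct glycoprotein gene Ovgp1 made up 33514, against 128 to 1841 CPM elsewhere, and its 4 cumulus expansion markers summed to 2.22 CPM against 200 to 3021. Its 3 measured red blood cell genes summed to 11228 CPM and its 6 theca and stroma genes to 1219 CPM, where the highest sums elsewhere were 1939 CPM (16 L replicate 21) and 34.95 CPM. Oviduct sums were next highest in 16 L replicates 21 (1841 CPM) and 20 (1428 CPM). The results of the leptin comparison are therefore given with and without replicate 18. In bulk libraries such as these, fewer cells that express a gene and less RNA per cell cannot be told apart.

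**Figure D1:**
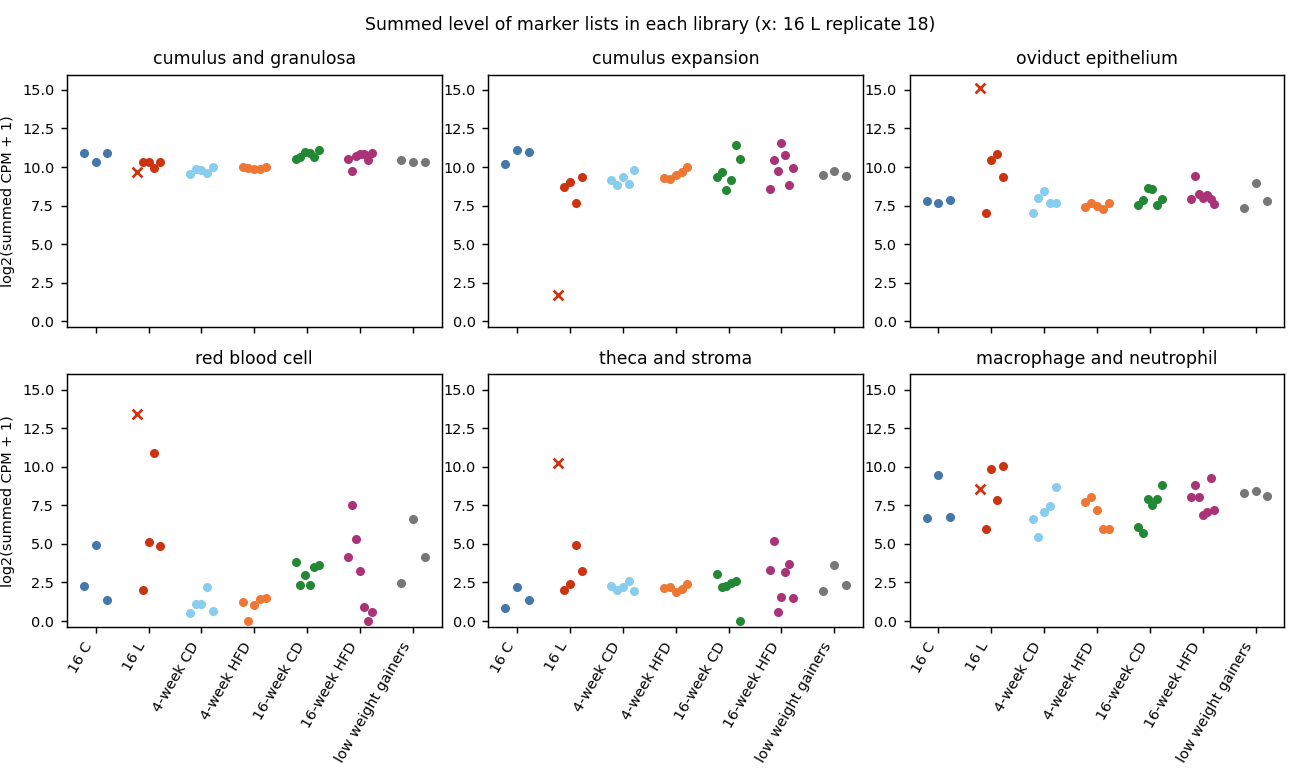
Summed level of 6 marker lists in each library, as log2(summed CPM + 1) on the vertical axis, by group. Each point is a library and the cross is 16 L replicate 18, which lies above all other libraries for oviduct epithelium (36159 CPM), red blood cell and theca and stroma genes and below them for cumulus expansion genes (2.22 CPM).

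The genes differed widely in level. Per kilobase of merged exons (GENCODE M21), which allows genes to be compared, the median level over the 34 libraries was 101 CPM per kb for Sfrp4, 50.6 for Cebpb, 39.5 for Runx2, 22.2 for Runx1 and 15.8 for Sult1e1. The median level was 6.87 CPM per kb for Cebpa, 3.94 for Ptges, 2.69 for Lhcgr and 1.32 for Ptger2. Pgr had no read in 27 of the 34 libraries. Sfrp4 was thus the most abundant transcript of the group, followed by the transcription factor genes Cebpb, Runx2 and Runx1. Per kilobase, both receptors with reads in every library, Lhcgr and Ptger2, were the lowest of the 9 genes with a median above 0. In CPM without regard to length, Ptger2 was still the lowest of these (median 6.83). The median of Lhcgr, 20.5 CPM, was then above those of Sult1e1 (19.6), Cebpa (18.1) and Ptges (15.5).

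**Figure D2:**
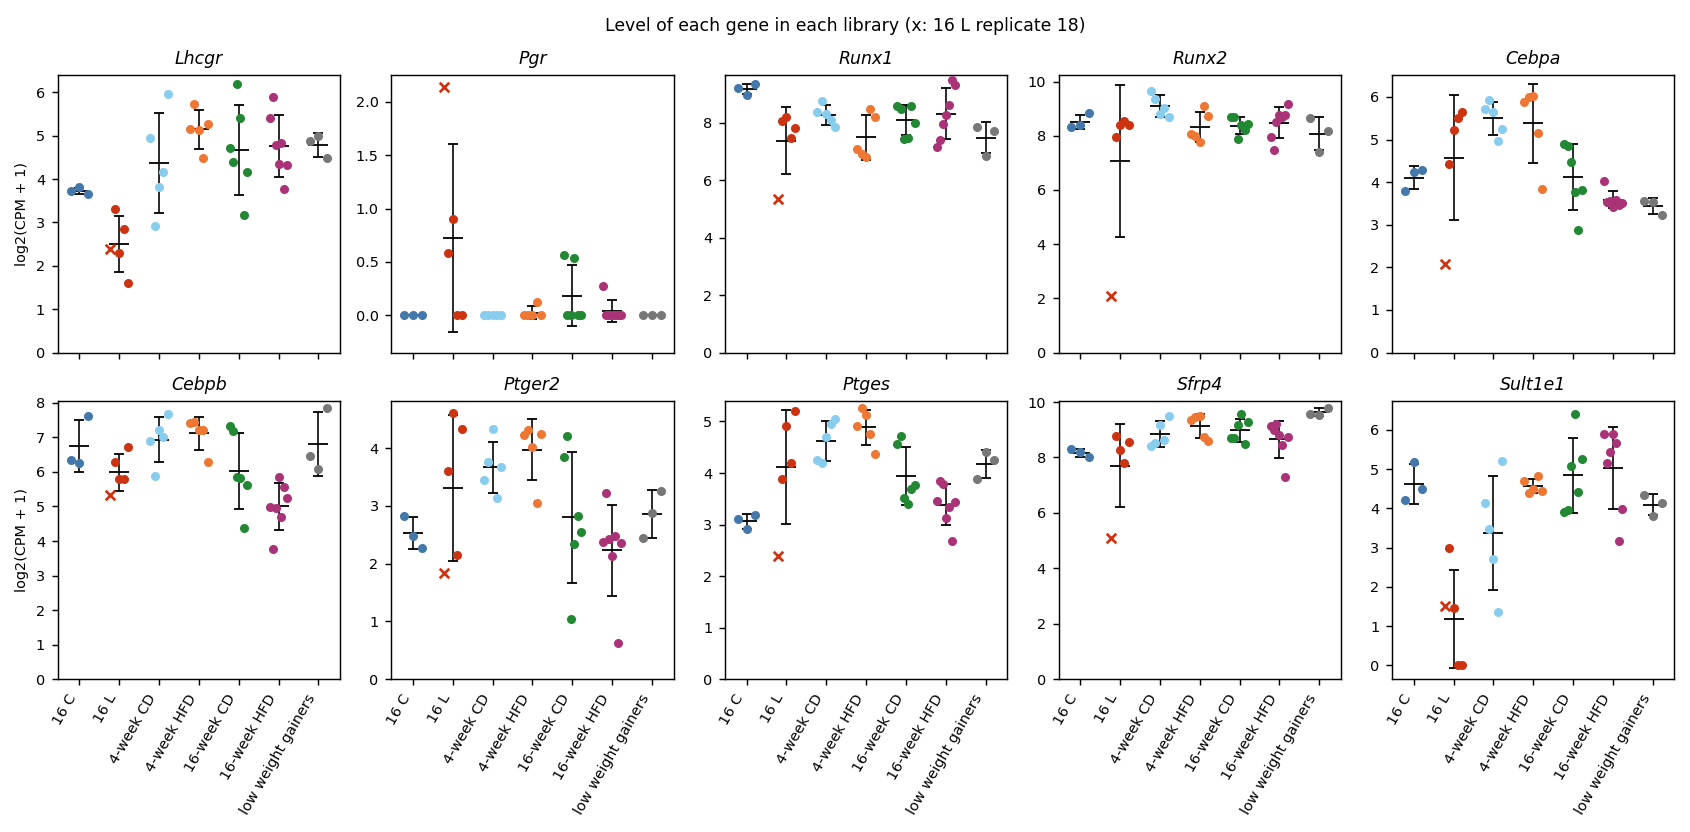
Level of each gene in each library, as log2(CPM + 1) on the vertical axis, by group. Points are libraries, the cross is 16 L replicate 18, and the bar and whiskers are the mean and SD of the group on this scale. On this CPM scale, Sult1e1, Runx1 and Lhcgr in 16 L lie below every saline library, whereas Pgr is at or near 0 in nearly every library.

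The stretch of 250 bases before the start of a gene is given for the receptor gene and for the 3 genes on which the comparisons below turn most, from RefSeq on GRCm38.p6. The table of promoters held 9 of the 10 genes (Sfrp4 was not among them), and Runx1 had 2 starts in it. The capitals mark matches, on either strand, to TGTGGT (RUNX), TTGCAA and ATTGCG (C/EBP), TGACG (core of the cyclic AMP response element) and GGGCGG (SP1). The strand, with the region, is minus for Lhcgr (chr17:88792015-88792264), plus for Cebpb (chr2:167688665-167688914), minus for Ptges (chr2:30903298-30903547) and minus for Sult1e1 (chr5:87591612-87591861). These windows overlapped no GENCODE exon, whereas those of Runx2 and of the distal start of Runx1 did and are not shown. The Ptges window lies within the GENCODE extent of that gene, between its exons.
Lhcgr: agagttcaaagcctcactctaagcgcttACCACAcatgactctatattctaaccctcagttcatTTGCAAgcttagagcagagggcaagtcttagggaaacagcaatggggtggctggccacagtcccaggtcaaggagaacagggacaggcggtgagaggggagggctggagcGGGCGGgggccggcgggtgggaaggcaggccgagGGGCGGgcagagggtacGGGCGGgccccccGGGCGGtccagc
Cebpb: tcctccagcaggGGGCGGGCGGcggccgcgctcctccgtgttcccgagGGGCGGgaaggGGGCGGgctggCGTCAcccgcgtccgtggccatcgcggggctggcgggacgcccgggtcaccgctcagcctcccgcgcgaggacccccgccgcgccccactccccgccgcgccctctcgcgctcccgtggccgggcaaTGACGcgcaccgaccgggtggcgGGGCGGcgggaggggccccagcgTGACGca
Ptges: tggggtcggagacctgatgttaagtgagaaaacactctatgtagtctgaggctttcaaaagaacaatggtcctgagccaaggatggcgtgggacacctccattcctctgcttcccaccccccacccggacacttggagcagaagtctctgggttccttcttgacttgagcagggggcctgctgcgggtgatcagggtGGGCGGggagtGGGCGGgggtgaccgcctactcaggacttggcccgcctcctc
Sult1e1: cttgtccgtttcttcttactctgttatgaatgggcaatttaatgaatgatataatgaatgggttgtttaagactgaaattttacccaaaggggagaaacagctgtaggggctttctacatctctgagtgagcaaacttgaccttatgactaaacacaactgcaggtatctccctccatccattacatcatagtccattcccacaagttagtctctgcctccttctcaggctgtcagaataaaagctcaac
In the Cebpb window there were 3 matches to the cyclic AMP response element core and 5 to the SP1 motif, of which the first and second SP1 matches overlapped. The Lhcgr window held 1 RUNX match, 1 C/EBP match to TTGCAA (which reads the same on both strands) and 4 SP1 matches. Ptges had 2 SP1 matches and Sult1e1 had none of the motifs. Over the 250 bases before the start of all 32851 promoters, 14% held TGTGGT, 5.34% TTGCAA, 2.23% ATTGCG, 17.8% TGACG and 32.7% GGGCGG. A match describes the letters alone.

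With the first comparison, of 16 L with 16 C, the response of these genes to 16 days of leptin was examined. Of the 9 genes tested with edgeR, 0 were past an adjusted p of 0.05, against 8.56% of all 11723 genes tested. An unadjusted p under 0.05 was found for 4 of the 9 and 32.4% of all genes. DESeq2 called 2 of the 9, against 22.4% of all genes, and limma-voom with quality weights called 7, against 64.4%. Without 16 L replicate 18, edgeR called 4 of the 9 genes, against 41.8% of all 11077 genes tested. These were Sult1e1 and Runx1, both lower, and Ptges and Cebpa, both higher in 16 L. With the 5 leptin libraries, 3 genes had CPM that did not overlap between the groups (Sult1e1, Runx1 and Lhcgr, all lower), as did 23.4% of all genes. Runx1 and Lhcgr did overlap when libraries were scaled by total counts. Without replicate 18 there were 5 (with Ptges and Cebpa, both higher), and 46.4% of all genes. The median log2 fold change was -0.53 for the 9 genes and 0.27 for all genes tested, and the latter was 1.08 when libraries were scaled by total counts. Without replicate 18 the medians were -0.28 and 0.098. Some marker levels also differed from 16 C in the other leptin libraries. Only those of the cumulus expansion genes (lower) and the oocyte markers (higher) did so in the same direction in each. The cumulus expansion genes, themselves targets of the ovulatory signal, summed to 1195, 2192 and 2030 CPM in 16 C replicates 1, 2 and 3 and to 425, 513, 200 and 640 CPM in 16 L replicates 19, 20, 21 and 23. The oocyte markers summed to 1.51, 1.42 and 1.93 CPM in 16 C, where 3 reads correspond to 2.27, 0.355 and 1.16 CPM. They summed to 2.50, 3.92, 11.0 and 7.08 CPM in these leptin libraries. The oviduct markers summed to between 199 and 227 CPM in 16 C, and to 129, 1428, 1841 and 665 CPM in the same leptin libraries. Red blood cell genes summed to at most 30.1 CPM in 16 C and to 3.10, 34.4, 1939 and 28.3 CPM in these leptin libraries. The granulosa markers summed to 1929, 1275 and 1966 CPM in 16 C and to 1294, 1296, 978 and 1300 CPM in these leptin libraries. The part of these levels in the results was not tested.

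Sult1e1 (chromosome 5, 87575968 to 87591611, minus strand) encodes the sulfotransferase that inactivates estrogens. In 16 C it had 17.4, 35.2 and 21.6 CPM in replicates 1, 2 and 3. In 16 L it had 1.88 CPM in replicate 18, 6.89 in 19, 1.74 in 20, and 0 reads in replicates 21 and 23, where 3 reads correspond to 2.07 and 1.01 CPM. All 5 leptin libraries were below all 3 saline libraries, with a log2 fold change of -3.39 (SE 0.97, adjusted p = 0.0560), or -3.31 (SE 0.89, adjusted p = 0.0151) without replicate 18. It was also past the threshold without replicate 19 (adjusted p = 0.0243), and the adjusted p rose to 0.181 without 16 C replicate 3.

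Runx1 (chromosome 16, 92601467 to 92826066, minus strand) encodes a DNA-binding subunit of core-binding factor that is induced in granulosa cells around ovulation. It had 593, 503 and 646 CPM in 16 C replicates 1, 2 and 3. The leptin libraries had 39.6 CPM in replicate 18 and 264, 289, 177 and 225 CPM in replicates 19, 20, 21 and 23, each below the lowest saline library, for a log2 fold change of -1.56 (SE 0.53, adjusted p = 0.0884), and -1.36 (SE 0.26, adjusted p = 0.00261) without replicate 18. Its relative Runx2 (chromosome 17, 44495987 to 44814797, minus strand) had 320 to 451 CPM in 16 C and 246 to 372 CPM in the 4 leptin libraries other than replicate 18, so that the groups overlapped. Replicate 18 had 3.24 CPM of Runx2, from 19 reads, the lowest of all 34 libraries. Runx2 had a log2 fold change of -0.53 (SE 0.92, adjusted p = 0.718), and -0.28 (SE 0.26, adjusted p = 0.406) without that library.

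Lhcgr (chromosome 17, 88741549 to 88791976, minus strand) was measured at 12.11, 13.01 and 11.57 CPM in 16 C. In 16 L it had 4.27 CPM in replicate 18, 8.99 in 19, 3.92 in 20, 6.198 in 21 and 2.02 in 23, from 6 to 90 reads. The groups did not overlap, yet the difference was not past the threshold with replicate 18 (log2 fold change -1.26, SE 0.53, adjusted p = 0.135) or without it (-1.28, SE 0.51, adjusted p = 0.0660). The progesterone receptor gene Pgr (chromosome 9, 8900419 to 8965425, plus strand) had too few reads for the fit in every comparison. It had 0 reads in the 3 saline libraries, where 3 reads correspond to 2.27, 0.355 and 1.16 CPM, and 20, 5, 2, 0 and 0 reads in 16 L replicates 18, 19, 20, 21 and 23. Replicate 18, with the oviduct markers, thus held 20 of the 27 reads of Pgr in 16 L. The difference in mean log2(CPM + 1) was 0.73 (exact two-sided permutation, p = 0.357), and 5 against 3 libraries can give no p below 0.0357. Without replicate 18 the difference was 0.37 (exact two-sided permutation, p = 0.571, with no p below 0.0571 possible). Over the remaining 26 libraries Pgr had 5 reads in all.

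The C/EBP genes had fold changes of opposite sign in 16 L. Cebpa (chromosome 7, 35119293 to 35121926, plus strand), which encodes a transcription factor needed for luteinization together with C/EBP beta, had 12.9, 17.7 and 18.5 CPM in 16 C. In 16 L it had 3.24 CPM in replicate 18 and 20.4, 36.6, 44.1 and 49.2 CPM in replicates 19, 20, 21 and 23, which were all above the saline libraries. Its log2 fold change was 0.88 (SE 0.70, adjusted p = 0.405) with replicate 18 and 1.08 (SE 0.36, adjusted p = 0.0382) without it. Cebpb (chromosome 2, 167688915 to 167690418, plus strand) had 81.0, 75.6 and 197 CPM in 16 C and 39.1, 77.4, 54.9, 54.4 and 105 CPM in 16 L replicates 18, 19, 20, 21 and 23, and the groups overlapped. Its log2 fold change was -0.83 (SE 0.44, adjusted p = 0.213), -0.77 (SE 0.38, adjusted p = 0.127) without 16 L replicate 18, and -0.26 without 16 C replicate 3.

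The genes of prostaglandin E2 were measured next. Ptges (chromosome 2, 30889471 to 30929863, minus strand) encodes the inducible enzyme that makes prostaglandin E2. It had 7.57, 6.50 and 8.10 CPM in 16 C, from 10, 55 and 21 reads. In 16 L it had 4.27 CPM in replicate 18 and 13.8, 29.2, 17.2 and 36.1 CPM in replicates 19, 20, 21 and 23, which lay above all saline libraries. Ptges had a log2 fold change of 1.43 (SE 0.64, adjusted p = 0.154), and 1.62 (SE 0.42, adjusted p = 0.0130) without replicate 18. Ptger2 (chromosome 14, 44988195 to 45003820, plus strand) encodes the receptor EP2, through which prostaglandin E2 raises cyclic AMP in cumulus cells. Ptger2 had 6.06, 4.61 and 3.86 CPM in 16 C, from 8, 39 and 10 reads. In 16 L replicates 18, 19, 20, 21 and 23 it had 2.56, 11.2, 23.5, 3.44 and 19.2 CPM. These came from 15, 112, 54, 5 and 57 reads. The log2 fold change of Ptger2 was 1.30 (SE 0.77, adjusted p = 0.266), and 1.51 (SE 0.60, adjusted p = 0.0669) without replicate 18. The leptin libraries highest in both genes, replicates 20 and 23, also had the highest summed level of macrophage and neutrophil markers (916 and 1083 CPM, over 7 of 8 genes). That sum was 61.9, 231 and 370 CPM in replicates 19, 21 and 18, and 102, 707 and 106 CPM in 16 C replicates 1, 2 and 3, and its part in these results was not tested.

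Sfrp4 (chromosome 13, 19623175 to 19632821, plus strand), a secreted Frizzled-related protein that binds WNT ligands, had 257 to 313 CPM in 16 C. It had 33.5 CPM in 16 L replicate 18 and 220 to 439 CPM in the other leptin libraries, on both sides of the saline levels. Its log2 fold change was -0.08 (SE 0.63, adjusted p = 0.943), and turned to 0.13 (SE 0.28, adjusted p = 0.733) without replicate 18. When replicates 20 and 21 were also left out, an alternative chosen after the data were seen, 2 of the 9 genes were called, against 24.9% of all genes, Runx1 (log2 fold change -1.26, adjusted p = 0.0269) and Ptges (1.77, adjusted p = 0.0391), whereas Sult1e1 had a log2 fold change of -2.72 (adjusted p = 0.0650).

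**Figure D3:**
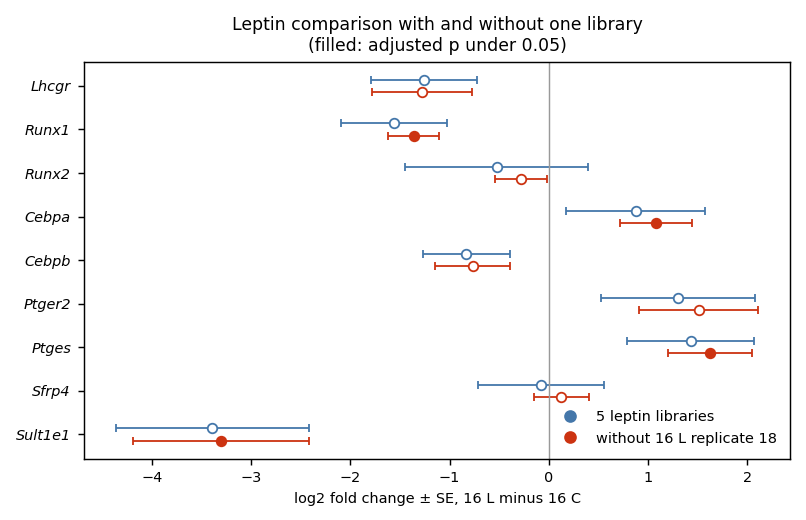
Log2 fold change of 9 genes in 16 L relative to 16 C, on the horizontal axis, with all 5 leptin libraries (blue) and without 16 L replicate 18 (red). Whiskers are the standard error and filled points are past an adjusted p of 0.05, which holds for Sult1e1 (-3.31), Runx1 (-1.36), Ptges (1.62) and Cebpa (1.08) without that library.

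Around these genes, 81 genes in 6 lists of the pathway were examined, of which 66 were tested in this comparison, and 4 rose and 7 fell, beside the 8.56% called over all genes. Without replicate 18, 12 rose and 15 fell, beside 41.8% over all genes. Of 11 luteal genes tested, 0 rose and 5 fell, with a median log2 fold change of -1.37, against 0.27 for all genes. Without replicate 18, 2 luteal genes rose and 6 fell (median -1.16, or 0.098 for all genes). The cell cycle inhibitor Cdkn1b fell by 4.07 on the log2 scale (adjusted p = 0.00825), from 8353 ± 3485 CPM (SD, n = 3) to 500 ± 125 CPM (SD, n = 5). Mrap, an accessory protein of melanocortin receptors, fell by 2.81 (adjusted p = 0.0202), and Cdkn1a, a further inhibitor of the cell cycle, fell by 1.87 (adjusted p = 0.0270, and 0.0912 with libraries scaled by total counts). These lay below the saline libraries in 5 of 5 leptin libraries. Of the 11 genes of prostaglandin synthesis, transport and reception tested, 2 rose and 0 fell (median 0.99), whereas without replicate 18 there were 3 in each direction (median 0.47). Those called with all libraries were the EP1 receptor gene Ptger1 (log2 fold change 2.58, adjusted p = 0.0463) and the prostaglandin transporter gene Slco2a1 (2.35, adjusted p = 0.0315).

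Of 20 genes that carry the signal of the LH receptor, 2 rose and 0 fell (median 0.27), and without replicate 18 there were 4 that rose and 2 that fell (median 0.29). Called with all libraries were Mapk3, which encodes ERK1 (log2 fold change 1.81, adjusted p = 0.0263), and Map2k2, which encodes a kinase that activates it (1.41, adjusted p = 0.0413). Of 9 relatives and partners of the 10 genes tested, 0 rose and 2 fell (median 0.22), and without replicate 18 there was 1 that rose and 3 that fell (median 0.27). The relative Sfrp2 of Sfrp4 fell by 4.16 on the log2 scale (adjusted p = 0.0111), from 752 ± 369 CPM (SD, n = 3) to 42.8 ± 24.1 CPM (SD, n = 5), while the log2 fold change of Sfrp4 was -0.08. The nuclear receptor coactivator gene Ncoa1 fell by 2.48 (adjusted p = 0.0295). Of 7 targets of the progesterone receptor and 8 follicular genes that LH turns off, 0 were called, with 2 and 0 at an unadjusted p under 0.05, 1 and 0 called by DESeq2, and 3 and 5 by limma-voom (medians -0.13 and -0.22). Without replicate 18, 1 of the targets fell and 2 of the follicular genes rose (medians -0.011 and -0.0998). The named genes of this comparison were also past the threshold without replicate 18, with adjusted p from 7.79e-05 to 0.00628. Cdkn1b was past it in all 8 fits that left out 1 library, and Sfrp2 missed it without 16 C replicate 3 (adjusted p = 0.0537). The other named genes missed it, with an adjusted p of up to 0.187, without any one of the 16 C replicates, without 16 L replicate 20 or 23 and, except Cdkn1a, without 16 L replicate 21. With no filter on low counts Map2k2, Ptger1 and Slco2a1 also missed it (adjusted p = 0.0665, 0.0583 and 0.0510).

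The next comparison asked whether 4 weeks of HFD changed these genes. Of the 9 genes tested, edgeR called 0, against 4.26% of 11727 genes. An unadjusted p under 0.05 was found for 1 (Runx2), against 24.3% of all genes, and DESeq2 and limma-voom called 0 and 4, against 11% and 34.5%. All 9 overlapped between the groups, whereas 6.61% of all genes did not. The median log2 fold change of the 9 was 0.23, and -0.0099 for all genes. Both RUNX genes were lower by their means. Runx2 had 415, 805, 655, 440 and 513 CPM in 4-week CD replicates 11, 1, 2, 7 and 8, and 545, 423, 264, 254 and 219 CPM in 4-week HFD replicates 13, 14, 3, 4 and 5. Of the HFD libraries, 3 lay below all CD libraries and 2 within their range, and its log2 fold change was -0.74 (SE 0.31, adjusted p = 0.158). Runx1 had the same 3 libraries at the bottom, with 135, 120 and 110 CPM in replicates 3, 4 and 5, against 230 to 435 CPM in CD (log2 fold change -0.65, SE 0.35, adjusted p = 0.261).

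Sult1e1 was less scattered in 4-week HFD than in 4-week CD. It had 27.4, 20.8, 25.0, 19.9 and 21.5 CPM in HFD replicates 13, 14, 3, 4 and 5, whereas the CD libraries had 36.0, 16.6, 10.1, 5.57 and 1.57 CPM in replicates 11, 1, 2, 7 and 8. Of the CD libraries, 4 lay below all HFD libraries and replicate 11 above them. Its log2 fold change was 0.68 (SE 0.48, adjusted p = 0.397), and without 4-week CD replicate 11 it was 1.38 (adjusted p = 0.0433). Lhcgr was 25.5 ± 21.5 CPM (SD, n = 5) in CD and 35.8 ± 11.1 CPM (SD, n = 5) in HFD, with the same replicate 11 the highest of the CD libraries at 60.8 CPM (log2 fold change 0.45, SE 0.42, adjusted p = 0.520). The remaining genes, Cebpa, Cebpb, Ptger2, Ptges and Sfrp4, had log2 fold changes between 0.0013 and 0.32 and adjusted p from 0.536 to 0.998. Pgr had 1 read in HFD and 0 in CD (two-sided exact permutation test, p = 1). Replicate 5 of HFD had oocyte markers that summed to 317 CPM, against at most 7.46 CPM in the other libraries of this comparison. Left out, it changed no call among the 9 genes.

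In the pathway lists, 69 genes were tested and 4 called, beside the 4.26% called over all genes. The luteal gene Akr1c18, whose enzyme inactivates progesterone, rose by 1.66 on the log2 scale (adjusted p = 0.0290), from 812 ± 411 CPM to 2562 ± 831 CPM (SD, n = 5 each). The angiogenic factor gene Vegfa fell by 2.06 (adjusted p = 0.0137), from 91.7 ± 36.7 CPM to 22.2 ± 10.6 CPM. Hpgd, which encodes the enzyme that breaks down prostaglandins, rose by 1.87 (adjusted p = 0.0216), and the FSH receptor gene Fshr, from the follicular genes that LH turns off, rose by 1.87 (adjusted p = 0.0281). The medians were -0.074 for the 11 luteal genes tested, 0.16 for the 11 prostaglandin genes and 0.034 for the 8 follicular genes. Vegfa missed the threshold without 4-week CD replicate 8 (adjusted p = 0.0552). Akr1c18 missed it without CD replicate 2, 7 or 8 or any HFD replicate, Hpgd without CD replicate 2 or 8 or HFD replicate 3 or 5, and Fshr without CD replicate 7 or 8 or HFD replicate 14, 3, 4 or 5, with adjusted p from 0.0511 to 0.0961. These 3 genes also missed it when all 34 libraries shared a fit (adjusted p = 0.183, 0.0780 and 0.0827). In the lists of LH receptor transduction, progesterone receptor targets, and relatives and partners, 0 were called, with 4, 2 and 4 at an unadjusted p under 0.05, 1, 1 and 1 called by DESeq2 and 6, 5 and 5 by limma-voom (medians -0.079, 0.17 and -0.20).

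After 16 weeks of HFD, the C/EBP and prostaglandin genes were lower by their means, but edgeR called 0 of the 9 genes, against 0.0276% of 10861 genes. An unadjusted p under 0.05 was found for 3 (Cebpb, Cebpa and Ptges), against 25.3% of all genes, and DESeq2 and limma-voom called 1 and 0, against 9.72% and 0.046%. All 9 overlapped between the groups, whereas 0.994% of all genes did not. The median log2 fold change was -0.26 for the 9 genes and -0.049 for all. Cebpb had a lowest, median and highest level of 19.6, 56.4 and 160 CPM in CD (n = 6) and of 12.7, 30.5 and 57.0 CPM in HFD (n = 7). Replicates 1 and 2 of CD (160 and 145 CPM) stood above the rest. The log2 fold change was -1.27 (SE 0.42, adjusted p = 0.0897), which was past the threshold in DESeq2 (adjusted p = 0.0452), with libraries scaled by total counts (-1.79, adjusted p = 0.0332) and with all 34 libraries in a single fit (adjusted p = 0.0385). Leaving out 1 library gave adjusted p from 0.0165 without 16-week CD replicate 9 to 0.280 without replicate 1.

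Cebpa had little spread in 16-week HFD, at 9.74, 10.7 and 15.2 CPM (lowest, median and highest), and ranged from 6.34 to 28.6 CPM in CD, around a median of 17.1 CPM. Its log2 fold change was -0.74 (SE 0.32, adjusted p = 0.162). It was past the threshold without 16-week CD replicate 9, the lowest CD library (-0.92, adjusted p = 0.0286). Ptges was 15.4 ± 6.79 CPM (SD, n = 6) in CD and 9.75 ± 2.74 CPM (SD, n = 7) in HFD, a log2 fold change of -0.68 (SE 0.32, adjusted p = 0.188). Its receptor gene Ptger2 was 7.83 ± 6.28 CPM in CD and 4.23 ± 2.28 CPM in HFD (-0.94, SE 0.57, adjusted p = 0.288). Lhcgr, Runx1, Runx2, Sfrp4 and Sult1e1 had log2 fold changes from -0.26 to 0.36 with adjusted p of at least 0.545. Pgr had 3 reads in CD and 1 in HFD (two-sided exact permutation test, p = 0.385). Of the 70 pathway genes tested, edgeR called 0, with 21 at an unadjusted p under 0.05, and DESeq2 and limma-voom called 9 and 0, beside the shares of all genes given above. The list medians were -0.33 for LH receptor transduction, -0.12 for progesterone receptor targets, -0.40 for prostaglandin genes, 0.11 for luteal genes, 0.45 for relatives and partners, and -0.85 for follicular genes.

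**Figure D4:**
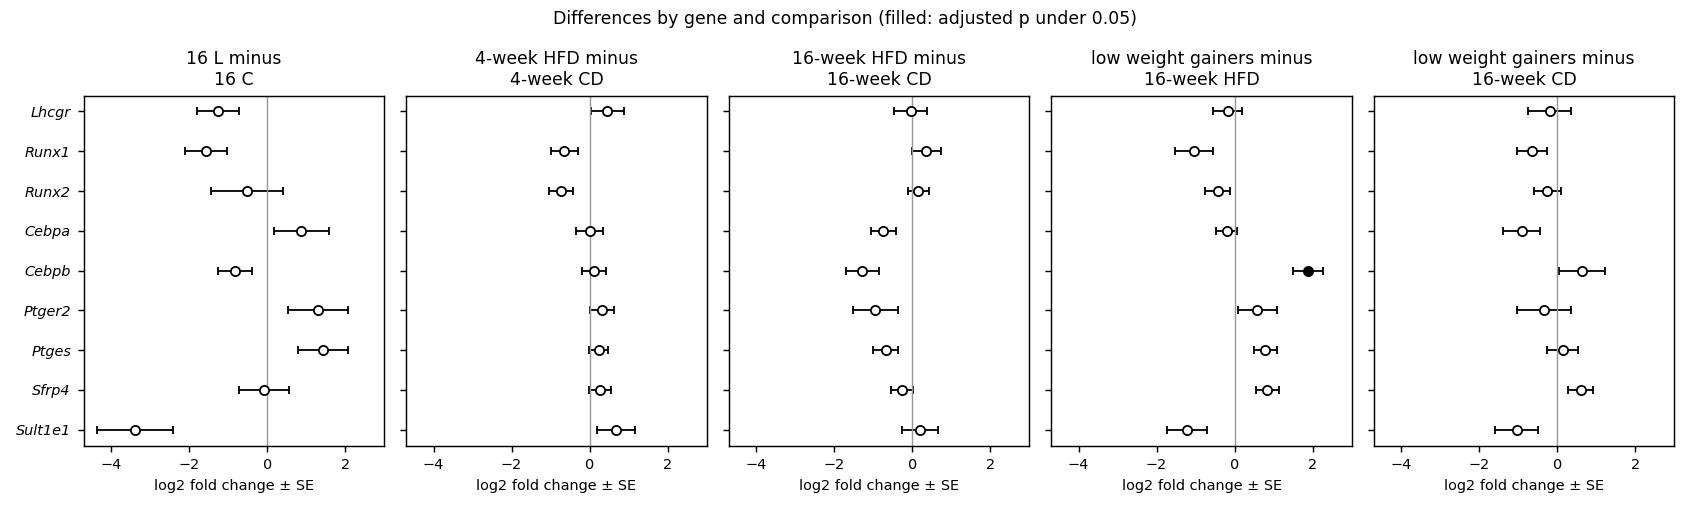
Log2 fold change and standard error of 9 genes in 5 comparisons, on a common horizontal axis. Filled points are past an adjusted p of 0.05, which holds for Cebpb in the low weight gainers relative to 16-week HFD (1.88) alone, and Sult1e1 in 16 L (-3.39) is the largest difference.

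Low weight gainers were then compared with the 16-week HFD mice that share their diet. Of the 9 genes, 1 was called, Cebpb, which was higher in low weight gainers, against 20.7% of 11258 genes. An unadjusted p under 0.05 was found for 5, against 36.3% of all genes, and DESeq2 and limma-voom called 4 and 4, against 25.3% and 29.2%. Levels did not overlap for 3 genes, Cebpb, Ptges and Sfrp4, all higher in low weight gainers, as for 20.4% of all genes. The median log2 fold change was -0.18 for the 9 genes and -0.030 for all. Cebpb had 87.2, 66.8 and 229 CPM in low weight gainers replicates 21, 22 and 23, above the highest of the 7 HFD libraries, at 57.0 CPM. The log2 fold change was 1.88 (SE 0.39, adjusted p = 0.00584). Without low weight gainers replicate 23 it was 1.14 and no longer past the threshold (adjusted p = 0.0698), and it was past it in the 9 fits that left out another library. Macrophages and neutrophils also express Cebpb, and their markers summed to 278 CPM in replicate 23. The sum was 317 and 352 CPM in the other low weight gainers and 115 to 628 CPM in the HFD libraries. The part of these cells in the level of Cebpb was not tested.

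Sfrp4 had 754, 740 and 889 CPM in low weight gainers, whereas the HFD libraries had 154, 445 and 584 CPM (lowest, median and highest). The log2 fold change was 0.84 (SE 0.29, adjusted p = 0.0510), and it was past the threshold in 4 of the 10 fits that left out a library, and with DESeq2 (adjusted p = 0.0289). Ptges had 13.7, 20.2 and 17.9 CPM in low weight gainers, against 5.38, 9.82 and 13.3 CPM in HFD. Its log2 fold change was 0.78 (SE 0.29, adjusted p = 0.0612), with an adjusted p of 0.0474 in DESeq2. Runx1 and Sult1e1 were lower by their means, with overlap. Runx1 was 184 ± 61.3 CPM (SD, n = 3) in low weight gainers and 370 ± 221 CPM (SD, n = 7) in HFD (-1.04, SE 0.48, adjusted p = 0.133), where HFD replicates 15 and 16 had 707 and 629 CPM. Sult1e1 was 16.3 ± 3.16 CPM in low weight gainers and 38.1 ± 20.2 CPM in HFD (-1.23, SE 0.51, adjusted p = 0.0982). Cebpa, Lhcgr, Ptger2 and Runx2 had adjusted p of at least 0.352. Pgr had 0 reads in low weight gainers and 1 in HFD (two-sided exact permutation test, p = 1).

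Of 71 pathway genes tested against 16-week HFD, 5 rose and 7 fell, beside the 20.7% called over all genes. In LH receptor transduction 3 of 20 rose and 2 fell (median 0.033). The adenylyl cyclase gene Adcy3 rose by 1.66 on the log2 scale (adjusted p = 0.00120), Mapk3 rose by 1.26 (adjusted p = 0.00599), and Creb1, which encodes a transcription factor that cyclic AMP activates, fell by 1.16 (adjusted p = 0.0133). Among 11 luteal genes, 2 rose and 1 fell (median -0.23). Cyp11a1, the side-chain cleavage enzyme that opens steroid synthesis, rose from 1858 ± 450 CPM (SD, n = 7) to 4616 ± 334 CPM (SD, n = 3), with an adjusted p of 0.00359. The lipoprotein receptor gene Scarb1 rose by 1.28 (adjusted p = 0.00131), and the prolactin receptor gene Prlr fell by 1.59 (adjusted p = 0.00191). The prostaglandin synthase gene Ptgs2 fell by 0.89 (adjusted p = 0.0388), the only call among 11 prostaglandin genes (median -0.35). Of 9 relatives and partners, 0 rose and 2 fell (median -0.17). These were Cebpz (-0.99, adjusted p = 0.00551), a relative of the C/EBP genes by symbol only, and the coregulator gene Nrip1 (-1.25, adjusted p = 0.00884). Of 9 follicular genes 0 rose and 1 fell (median 0.17), the activin subunit gene Inhba (-1.07, adjusted p = 0.0110). Of 11 targets of the progesterone receptor edgeR called 0, with 3 at an unadjusted p under 0.05 and 2 and 2 called by DESeq2 and limma-voom (median -0.42). Without low weight gainers replicate 23, Creb1, Nrip1, Inhba and Ptgs2 missed the threshold (adjusted p = 0.104, 0.0830, 0.0703 and 0.160). Inhba also missed it without replicate 22, and Ptgs2 without replicate 21, without HFD replicate 10, 14 or 16, and with libraries scaled by total counts (adjusted p = 0.0789). With all 34 libraries in a single fit, of the named genes only Adcy3 and Mapk3 stayed past it, and the others had adjusted p from 0.0568 to 0.538.

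Against 16-week CD, edgeR called 0 of the 9 genes in low weight gainers, with 0 at an unadjusted p under 0.05 and 0 and 0 called by DESeq2 and limma-voom. Of 11620 genes, edgeR called 0.00861%, 11.2% had an unadjusted p under 0.05, and DESeq2 and limma-voom called 2.15% and 1.69%. In CPM, all 9 genes overlapped between the groups, where 7.52% of all genes did not. This comparison shares its low weight gainers with the previous one. Cebpb was 80.9 ± 57.1 CPM (SD, n = 6) in CD and 128 ± 88.3 CPM (SD, n = 3) in low weight gainers (log2 fold change 0.63, SE 0.59, adjusted p = 0.720). Sfrp4 was 522 ± 150 CPM in CD and 794 ± 82.2 CPM in low weight gainers (0.60, SE 0.32, adjusted p = 0.519). The lowest adjusted p, of 0.504, was that of Cebpa (-0.91, SE 0.47), with 8.33 to 10.7 CPM in low weight gainers. Pgr had 3 reads in CD and 0 in low weight gainers (two-sided exact permutation test, p = 0.833). Of 71 pathway genes tested, edgeR called 0, with 15 at an unadjusted p under 0.05 and 6 and 4 called by DESeq2 and limma-voom. The list medians were -0.19 for LH receptor transduction, -0.32 for progesterone receptor targets, -0.32 for prostaglandin genes, -0.12 for luteal genes, -0.054 for relatives and partners, and -0.82 for follicular genes, against -0.076 for all genes.

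Whether the difference between diets itself changed from 4 to 16 weeks was tested with an interaction term. Of the 9 genes, edgeR called 0, against 3.66% of 12235 genes, and DESeq2 and limma-voom called 0 and 4, against 9.52% and 19.2%. An unadjusted p under 0.05 was found for 4, against 23.4% of all genes. The RUNX genes had a diet difference that was higher at 16 than at 4 weeks, with a log2 difference of 0.99 (SE 0.40, adjusted p = 0.137) for Runx2 and 1.12 (SE 0.53, adjusted p = 0.199) for Runx1. Cebpb and Ptges had one that was lower at 16 weeks, by -1.27 (SE 0.54, adjusted p = 0.153) and -0.83 (SE 0.40, adjusted p = 0.213). Without 16-week CD replicate 9, Cebpb was past the threshold (adjusted p = 0.0434). The level of Cebpa, 45.6 ± 12.0 CPM (SD, n = 5) in 4-week CD and 46.6 ± 22.1 CPM (SD, n = 5) in 4-week HFD, was 18.3 ± 9.01 CPM (SD, n = 6) and 11.1 ± 1.88 CPM (SD, n = 7) in the corresponding 16-week groups, and this difference between time points was not tested.

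Since the study set leptin treatment beside 4 weeks of HFD, the difference of 16 L from 16 C was also compared with that of 4-week HFD from 4-week CD, again as an interaction. Of the 9 genes, 1 was called, Sult1e1, against 27.2% of 12947 genes, and DESeq2 and limma-voom called 2 and 5, against 31.6% and 61.1%. An unadjusted p under 0.05 was found for 2 of the 9, against 40.6% of all genes. The estrogen sulfotransferase gene had a log2 fold change of -3.39 with leptin and of 0.68 with HFD, and the difference between them was -4.12 (SE 1.03, adjusted p = 0.00825). It was past the threshold in all 18 fits that left out 1 library, with adjusted p from 0.00129 to 0.0281. Without 16 L replicate 18 the difference was -3.92 (adjusted p = 0.00361), where 43.5% of 12739 genes were called. In that fit Ptges was called as well (1.41, SE 0.45, adjusted p = 0.0168). With all libraries, Lhcgr had a difference of -1.80 (SE 0.70, adjusted p = 0.0598) and an adjusted p of 0.0499 in DESeq2. The remaining 6 genes tested had adjusted p from 0.152 to 0.920.

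The genes were finally compared with each other over the 34 libraries, in 6 pairs of related function, as log2(CPM + 1) with the group mean removed. Runx1 and Runx2 varied together (Pearson's r = 0.784, permutation p = 2e-05, adjusted p = 0.00012; Spearman's rho = 0.831, permutation p = 1e-05, the smallest that 100000 permutations can give). Leaving out the 2 libraries whose Runx1 level lay farthest from its median, 16 L replicate 18 and 16-week HFD replicate 15, gave r = 0.801, and leaving out only the first gave 0.784, with group means taken anew. Ptges and the receptor gene Ptger2 also varied together, with r = 0.724 (permutation p = 0.00024, adjusted p = 0.00072) and rho = 0.615 (permutation p = 0.00149, adjusted p = 0.00447), and r was 0.626 without the same 2 libraries and 0.679 without 16 L replicate 18. For Cebpa and Cebpb, r was 0.435 (permutation p = 0.00648, adjusted p = 0.0130) and 0.435 without 16 L replicate 18 and 4-week HFD replicate 5, but rho was 0.336 (permutation p = 0.0694, adjusted p = 0.110). The 3 other pairs did not pass the threshold. Sfrp4 and Lhcgr had r = 0.335 (permutation p = 0.0561, adjusted p = 0.0842), rho = 0.349 (permutation p = 0.0732, adjusted p = 0.110) and r = 0.434 without the 2 farthest libraries. Cebpb and Sult1e1 had r = -0.119 (permutation p = 0.537, adjusted p = 0.644), rho = -0.151 (permutation p = 0.422, adjusted p = 0.506) and r = -0.187 without 2. Lhcgr and Pgr had r = 0.0799 (permutation p = 0.676, adjusted p = 0.676), rho = 0.112 (permutation p = 0.554, adjusted p = 0.554) and r = -0.0305 without 2. The values of a pair come from the same library and share its depth and scaling. Without strand, reads of Runx1, Runx2, Cebpa, Cebpb and Ptger2 cannot be told apart from those of genes with overlapping exons on the opposite strand, Gm26626, Runx2os1, Gm45091, Tmem189, and Gm17173 with Gm49364.

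**Figure D5:**
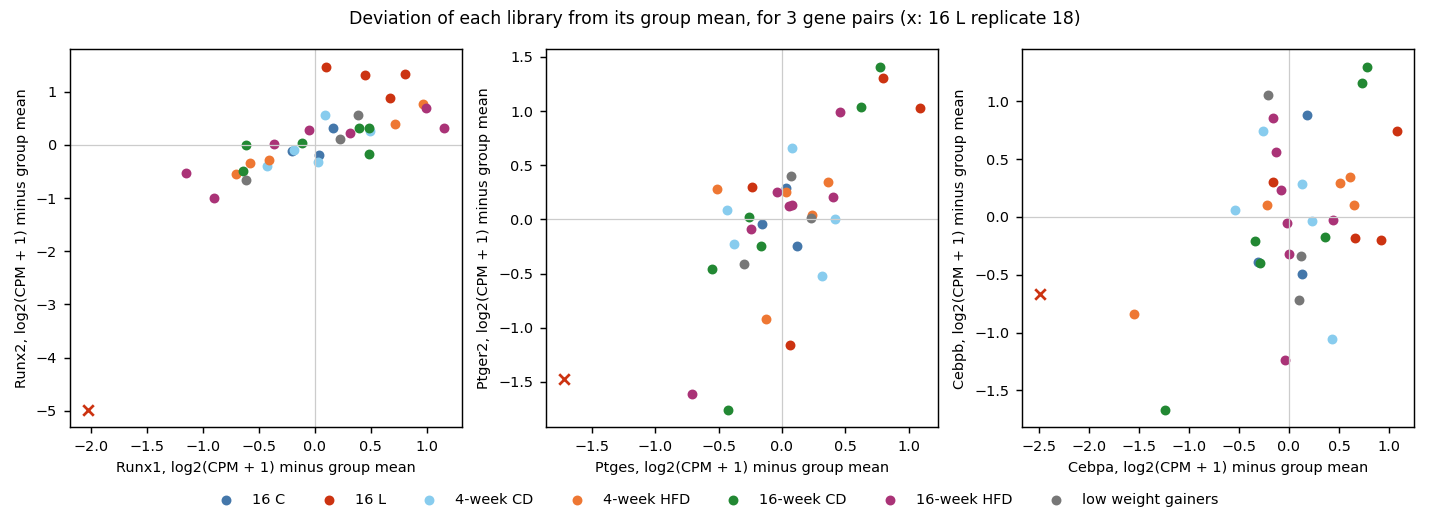
Deviation of each library from its group mean, in log2(CPM + 1), for Runx1 and Runx2, Ptges and Ptger2, and Cebpa and Cebpb. Each point is a library coloured by group and the cross is 16 L replicate 18, which lies at the lower left of each panel, and the points follow a common slope most closely for the RUNX genes (r = 0.784).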

How the data were processed

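RNA-seq of CCs from 34 libraries was analysed. The authors deposited 1 table of raw read counts per gene, which was used as deposited, with all of its columns matched to samples by their labels. Libraries were made by Smart-seq2, with oligo-dT priming and Nextera XT, and had no molecular identifiers, so intervals and limits from counts cover counting error only. The submitters' processing notes name Trim Galore 0.4.2, HISAT2 2.0.5 and the GRCm38 genome. The counting program, and whether it used strand, are not given in the sources used here. Groups followed the labels. Nothing used here says that replicates within a group came from separate superovulations or days, so p-values measure the spread between these libraries.

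Differential expression was tested with edgeR 4.0.16 (R 4.3.3; TMM, filterByExpr, robust quasi-likelihood F-test, two-sided) within the groups of each comparison, with Benjamini-Hochberg adjustment over all genes tested and calls at an adjusted p under 0.05. DESeq2 1.42.0 and limma 3.58.1 (voom with quality weights), RLE normalization, total counts, no filter, a single fit of all 34 libraries, a minimum of 10 counts in each library, and leaving out each library in turn were alternatives. Leaving out 16 L replicates 18, 20 and 21 together, a replicate block for the change of the diet difference with time, and Pgr without 16 L replicate 18 were chosen after seeing the data. Pgr, which failed the filter, was tested by exact permutation of log2(CPM + 1), with a pseudocount of 0.1 and total counts as alternatives. The procedure was tested on simulated data. The standard error (SE) of an edgeR log2 fold change was derived as its absolute value divided by the square root of the F statistic. The 10 genes, the 6 gene lists and the 8 marker lists were chosen with earlier results of these data known. Beside the 10 genes, up to 3 called genes with the smallest p were named per list in each comparison of 2 groups.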

Additional observations from a re-analysis of the deposited data

Results flagged for a closer look

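Single libraries stood away from the rest of their group for 4 of the 10 genes, in 5 of 46 groups examined, where chance flags about 1 in 20. Pgr was 3.42 CPM in 16 L replicate 18, against at most 0.871 CPM in the other leptin libraries. Sult1e1 was 6.89 CPM in 16 L replicate 19, against at most 1.88 CPM in the others. In CPM, this highest leptin library was still below every saline library. In 16-week CD, Sult1e1 was 84.0 CPM in replicate 8, against at most 37.5 CPM in the others. Cebpa was 15.2 CPM in 16-week HFD replicate 6, against at most 11.0 CPM. Cebpb was 76.8 CPM in 4-week HFD replicate 14, the lowest of its group.

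For the change of the diet difference from 4 to 16 weeks, 71 pathway genes were tested by the interaction term. Of these, 2 were called with a positive and 5 with a negative difference, beside 3.66% called over all genes. Hsd17b1 was called (-1.74, adjusted p = 0.026), and the other 6 had been named in a comparison of 2 groups. Fshr, Hpgd and Vegfa were named at 4 weeks, and Scarb1 and Prlr with the same 16-week HFD libraries. For these genes the interaction is therefore not separate evidence. The FSH receptor gene Fshr had a log2 difference of -2.67 (adjusted p = 0.0287), from 1.87 at 4 weeks to -0.87 at 16 weeks. The lipoprotein receptor gene Scarb1 had one of -2.34 (adjusted p = 0.0303), the prostaglandin transporter gene Slco2a1 one of -2.42 (adjusted p = 0.0346), and Hpgd, whose enzyme breaks down prostaglandins, one of -2.19 (adjusted p = 0.0386). Vegfa (1.91, adjusted p = 0.0199) and the prolactin receptor gene Prlr (1.81, adjusted p = 0.0409) had differences of the opposite sign. Between leptin and 4 weeks of HFD, the effect on Sult1e1 differed by -4.12 (adjusted p = 0.00825). This interaction uses the same libraries as the leptin comparison, so it is not separate evidence either. Of 73 pathway genes tested by it, 7 were called with a positive and 10 with a negative difference, beside 27.2% called over all genes.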

How the results depend on the processing

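Calls depended on the tool, for the 9 genes as for all genes (whose share called is given in brackets). In the leptin comparison the number of the 9 genes called was 0 (8.56%), 2 with DESeq2 (22.4%), 7 with limma-voom (64.4%), 1 with total counts (34.4%), 3 with all 34 libraries in one fit (33.1%), 2 without 16 L replicates 18, 20 and 21 (24.9%), and 0 to 4 with 1 library left out. At 4 weeks it was 0 (4.26%), 4 with limma-voom (34.5%), and 0 to 1 with 1 library left out. At 16 weeks it was 0 (0.0276%), 1 with DESeq2 (9.72%), 1 with total counts (15.2%), 1 with all 34 libraries in one fit (9.5%), and 0 to 2 with 1 library left out. For low weight gainers against 16-week HFD it was 1 (20.7%), 4 with DESeq2 (25.3%), 4 with limma-voom (29.2%), 2 with RLE normalization (20.7%), 3 with total counts (19.4%), 2 with no filter (12.5%), 3 with at least 10 counts in every library (24.6%), and 0 to 3 with 1 library left out. For the change of the diet difference with time it was 0 (3.66%), 4 with limma-voom (19.2%), and 0 to 1 with 1 library left out. For leptin against 4 weeks of HFD it was 1 (27.2%), 2 with DESeq2 (31.6%), 5 with limma-voom (61.1%), 3 with total counts (45.7%), 2 without 16 L replicates 18, 20 and 21 (32.3%), 1 to 2 with 1 library left out, and 0 with at least 10 counts in every library (27.4%), where Sult1e1 was not tested. Against 16-week CD it was 0 in every setting run.

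The signs that turned belonged to differences that edgeR did not call. With total counts they were, for leptin, Runx2 (0.40), Cebpb (0.020) and Sfrp4 (0.82); at 4 weeks, Cebpa (-0.080) and Cebpb (-0.011); at 16 weeks, Runx1 (-0.010), Runx2 (-0.24) and Sult1e1 (-0.11); in low weight gainers, Lhcgr against HFD (0.013) and Ptges against CD (-0.17); and for leptin against HFD, Runx1 (0.098), Cebpb (0.024) and Sfrp4 (0.68). With total counts the median over all genes moved from 0.27 to 1.08 for leptin, from 0.28 to 1.29 for leptin against HFD, from -0.049 to -0.40 at 16 weeks, from -0.0099 to -0.13 at 4 weeks, from -0.086 to -0.39 for the change with time, and in low weight gainers from -0.030 to 0.14 against HFD and from -0.076 to -0.28 against CD. With limma-voom they were Sfrp4 for leptin (0.10), Sult1e1 at 16 weeks (-0.36), and in low weight gainers Lhcgr against HFD (0.13) and Lhcgr (0.10) and Ptger2 (0.24) against CD. With at least 10 counts in every library Sfrp4 turned for leptin (0.080), and without 16 L replicates 18, 20 and 21 it turned for leptin (0.50) and for leptin against HFD (0.15). With 1 library left out, ranges crossed 0 for Sfrp4 with leptin (-0.31 to 0.13), for Cebpa (-0.13 to 0.24) and Cebpb (-0.067 to 0.31) at 4 weeks, and for Lhcgr at 16 weeks (-0.33 to 0.41) and against HFD in low weight gainers (-0.30 to 0.13). They also did for Lhcgr (-0.34 to 0.26), Runx2 (-0.56 to 0.088) and Ptger2 (-0.57 to 0.072) against CD, for Sult1e1 in the change with time (-1.18 to 0.049), and for Runx2 in leptin against HFD (-0.088 to 0.48). The cause was not tested. The correlation of Sfrp4 with Lhcgr passed the threshold with total counts (r = 0.399, permutation test, adjusted p = 0.0235).

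No paired analysis was possible because, in the comparisons of 2 groups, the groups shared no replicate number, and because in leptin against HFD 16 L shared none with any group of the fit. In the change with time, 7 pairs of libraries from different groups shared a number. The correlation of their deviations from the group means ran from -0.27 to 0.132, over 0.1 in 3 of 7. Pairs without a shared number were not set beside them, so this cannot decide whether they share more than a number. With the replicate block in that fit, added after the data were seen, 0 of the 9 genes were called, as without it, beside 0.0817% of all genes with 4 residual degrees of freedom, and Cebpa turned to 0.45. Pgr had 32 reads in all libraries together and Sult1e1 84 in 16 L, so that small differences in these were not detectable.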
